A study of Mus musculus with 14 samples.

Results

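Mouse embryonic stem cells grown with vitamin C were compared with cells of the same line grown with 2i, a pair of inhibitors of the MEK and GSK3 kinases. The comparison takes 4 of the 14 libraries of the series. VitC/LIF (2 libraries) had vitamin C at 500 µM and the cytokine LIF, and 2i/LIF (2 libraries) had the inhibitors and LIF. FBS/LIF (2 libraries), fetal bovine serum and LIF with neither addition, is set beside both. The growth protocol names vitamin C and 2i as additions to FBS/LIF, whereas the titles of these libraries mention LIF and not serum, so the presence of serum with 2i rests on the protocol alone. All cells were C57BL/6 embryonic stem cells of a line that carries an mCherry reporter of the mir-290 locus and an eGFP reporter of the mir-302 locus. They were plated at low density, kept in their medium for 5 days and lysed as a whole population for total RNA. Vitamin C was thus added in one medium and 2i in the other, so the part of each addition in a difference cannot be told apart in this contrast. All genes expressed in the 5-media experiment were taken, 16033 of the 37991 listed.

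As background, LIF keeps mouse embryonic stem cells self-renewing through STAT3. In serum, FGF signalling through MEK and ERK pushes them toward the primed state of the post-implantation epiblast. The 2i inhibitors block that route and, by inhibiting GSK3, stabilise beta-catenin. This holds cells in the naive (ground) state of the early epiblast and is known to lower DNA methylation. Vitamin C is a cofactor that keeps iron in its reduced form in a family of dioxygenases. The family includes the Tet enzymes that oxidise methylated cytosine, the JmjC histone demethylases and the prolyl hydroxylases of collagen and of hypoxia-inducible factor.

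Depth was similar across the comparison, with 19010225 and 17778399 mapped fragments in VitC/LIF, 20126845 and 18920832 in 2i/LIF and 22750698 and 21895681 in FBS/LIF. Estimated counts per gene were recovered from the deposited expression values and are given as CPM, counts scaled to the size of the library after TMM scaling between libraries. In a principal component analysis of the 4 libraries, the first component (68.1% of the variance) separated the media and the second (20.5%) separated replicate 1 from replicate 2 of both media. Effective gene lengths were 38.4 to 53.1 bases longer in replicate 2 libraries than in VitC/LIF replicate 1, against -2 to 6 bases in the other replicate 1 libraries. Transcripts encoded by the mitochondrial genome summed to 9437 and 7733 CPM in VitC/LIF and 9463 and 10505 CPM in 2i/LIF. The part of RNA quality in the results was not tested. The pluripotency gene Sox2 was abundant in both media, with means of 763 and 797 CPM in VitC/LIF and 2i/LIF.

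At a Benjamini-Hochberg adjusted p under 0.05 (edgeR's quasi-likelihood F test), 3935 genes were called, or 24.5% of those tested. Of these, 2392 (14.9%) were higher and 1543 (9.62%) lower in VitC/LIF than in 2i/LIF. More than 2-fold differences were found for 1634 of the higher and 722 of the lower genes, and more than 8-fold differences for 478 and 116. The median log2 fold change was 0.045 over all genes tested, and its median size among called genes was 1.28. Each called gene had no overlap between the libraries of the media, which also held for 68.1% of all genes tested. The set rests on having 2 libraries per medium: leaving out any one of the 4 libraries left 2235 to 2381 calls, and 1763 of the 3935 genes were called in all 4 such fits. FBS/LIF sat on the vitamin C side for most called genes. On the scale of log2 of CPM plus 0.1, its mean was nearer to VitC/LIF than to 2i/LIF, or beyond VitC/LIF, for 93.5% of them, and nearer to 2i/LIF or beyond it for 6.46% (254 genes).

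**Figure D1:**
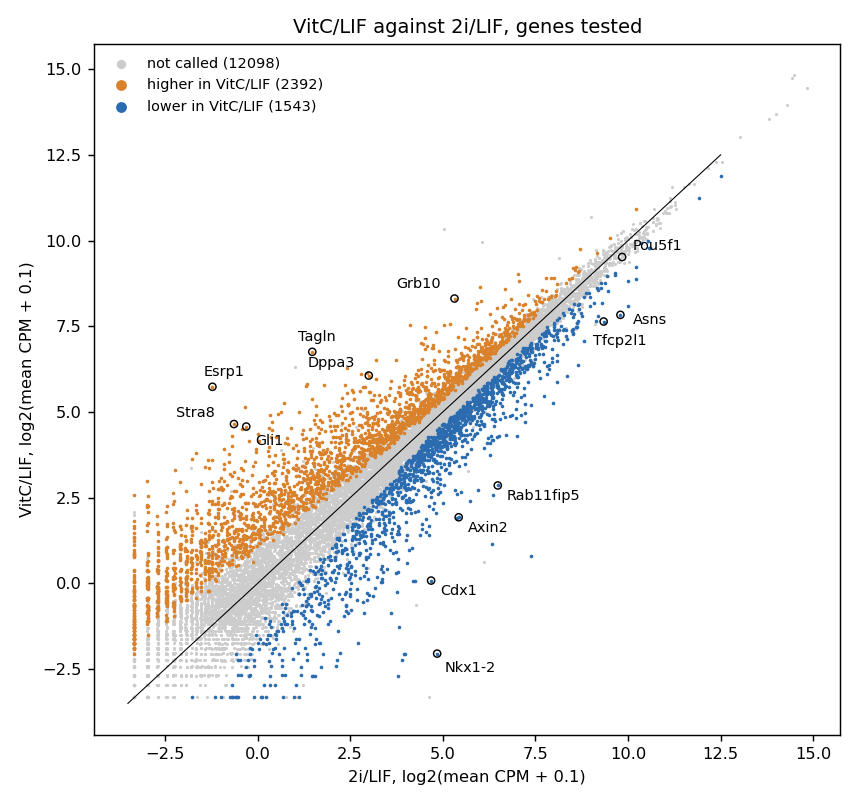
Mean expression of each gene tested in VitC/LIF (vertical axis) against 2i/LIF (horizontal axis), both as log2 of mean CPM plus 0.1, with the line of equal expression. Orange points are the 2392 genes called higher in VitC/LIF, blue points the 1543 called lower and grey points the 12098 not called, with 13 named genes ringed; Esrp1 and Nkx1-2 lie farthest from the line among the ringed genes.

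The genes with the steepest rise in VitC/LIF came from several programmes. Esrp1 (ENSMUSG00000040728), a splicing factor of epithelial cells, had 51.4 and 55.0 CPM in VitC/LIF libraries and 0.212 and 0.448 CPM in 2i/LIF libraries, against 56.0 and 65.4 CPM in FBS/LIF. Its log2 fold change was 7.32 ± 0.29 (SE; adjusted p = 5.43e-06). Enpp3, an ectonucleotide pyrophosphatase, had 33.4 and 37.9 CPM in VitC/LIF and 0.530 and 0.840 CPM in 2i/LIF (log2 fold change 5.69 ± 0.33). Phf19, a Polycomb-associated chromatin reader, had 20.1 and 19.1 CPM in VitC/LIF and 0.583 and 0.448 CPM in 2i/LIF. Slc40a1, the iron exporter ferroportin, had 22.6 and 22.8 CPM in VitC/LIF and 0.900 and 0.392 CPM in 2i/LIF. All 4 were below 1 CPM in both 2i/LIF libraries. In the rest of the text a value with ± is a log2 fold change of VitC/LIF over 2i/LIF with its SE. An interval is the 95% interval of such a fold change, not adjusted for the number of genes. The neurofilament gene Ina (log2 fold change 4.53), the placenta-enriched gene Plac8 (4.53), the X-linked homeobox gene Rhox9 (4.94) and the Hedgehog effector Gli1 (5.05) completed this group together with Stra8, Tagln, Acta2 and Thbs1, which are described with their programmes.

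Among the genes with the steepest fall in VitC/LIF, caudal and Wnt-responsive transcription factors led. Nkx1-2 (ENSMUSG00000048528), a homeobox gene of the caudal embryo, had 0.110 and 0.173 CPM in VitC/LIF libraries, 29.2 and 28.2 CPM in 2i/LIF libraries and 0.277 and 0.281 CPM in FBS/LIF. Of these media, only 2i/LIF thus had abundant expression (log2 fold change -7.60 ± 0.26, adjusted p = 2.74e-06). Rab11fip5, an effector of the recycling GTPase Rab11, had 6.95 and 7.34 CPM in VitC/LIF and 88.7 and 90.1 CPM in 2i/LIF (log2 fold change -3.64 ± 0.12). The axonemal dynein gene Dnah8 had 4.52 and 7.17 CPM in VitC/LIF and 76.4 and 88.0 CPM in 2i/LIF. Trpm1, a cation channel gene, had 6.95 and 6.07 CPM in VitC/LIF and 62.0 and 62.3 CPM in 2i/LIF. In all 4 the 2i/LIF libraries were the high ones. Sh2d4b (-4.22), Lrrc31 (-3.52), the actin-binding gene Ablim1 (-3.35), the interferon-induced gene Oas1a (-3.26) and the Ets-family gene Spic (-3.20) also fell, on the log2 scale, next to Cdx1, Sp5 and Axin2.

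Naive pluripotency genes were lower in VitC/LIF more often than higher, with 11 of 22 called lower, 5 called higher and a median log2 fold change of -0.39. Their summed expression was 3626 and 3468 CPM in VitC/LIF, 5013 and 5169 CPM in 2i/LIF and 3422 and 3312 CPM in FBS/LIF. Nanog (ENSMUSG00000012396), a homeobox factor of the naive network, had 194 and 196 CPM in VitC/LIF libraries, 364 and 429.7 CPM in 2i/LIF libraries and 129.6 and 161 CPM in FBS/LIF. Both VitC/LIF libraries lay below both 2i/LIF libraries, at a log2 fold change of -1.03 ± 0.14 (adjusted p = 0.000923). Tfcp2l1, a transcription factor that acts downstream of LIF, had 183 and 215 CPM in VitC/LIF and 637 and 661 CPM in 2i/LIF. This was the lowest log2 fold change of the list (-1.70 ± 0.27, adjusted p = 0.0022), next to that of the junction gene Jam2 (-1.69 ± 0.11). Prdm14, which represses Dnmt3 genes and FGF signalling in naive cells, had 14.9 and 13.3 CPM in VitC/LIF and 42.3 and 38.4 CPM in 2i/LIF. Klf4, a Krüppel-like factor induced by LIF, had 55.4 and 60.0 CPM in VitC/LIF and 123 and 140.1 CPM in 2i/LIF (log2 fold change -1.19 ± 0.17). Both genes were lower in VitC/LIF without overlap. Esrrb, an orphan nuclear receptor of the same network, had 169 and 231 CPM in VitC/LIF and 275 and 304 CPM in 2i/LIF. These libraries did not overlap, yet the difference missed the threshold (95% interval of the log2 fold change -0.98 to -0.08, adjusted p = 0.0865). Zfp42 (Rex1) and Dppa5a missed it as well, with intervals of -0.81 to 0.02 and -0.83 to 0.07.

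A second set of naive genes ran the other way. Dppa3 (ENSMUSG00000046323), known as Stella, which protects the maternal genome of the zygote from demethylation, had 71.2 and 62.4 CPM in VitC/LIF libraries, 9.21 and 6.61 CPM in 2i/LIF libraries and 51.1 and 43.2 CPM in FBS/LIF. Its VitC/LIF values were 8.43-fold above 2i/LIF (log2 fold change 3.08 ± 0.25, adjusted p = 6.8e-05), the largest rise on the list. Tfap2c, a transcription factor of the trophoblast and the early germline, had 89.6 and 80.7 CPM in VitC/LIF and 26.1 and 28.5 CPM in 2i/LIF (log2 fold change 1.64 ± 0.15). The remaining 3 higher members were Gbx2 (0.83), Dppa4 (0.72) and Dppa2 (0.58), named after their values were seen. With 1 library left out, Dppa4 was called in 0 of the 4 fits and Dppa2 in 2. FBS/LIF was nearer to VitC/LIF than to 2i/LIF for all 16 called naive genes, in either direction.

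The core pluripotency genes, which naive and primed cells share, were split. Pou5f1 (ENSMUSG00000024406), the gene of Oct4, had 754 and 716 CPM in VitC/LIF and 997 and 839 CPM in 2i/LIF, and its interval of -0.70 to 0.06 on the log2 scale spanned 0 (adjusted p = 0.202). Rif1 and Tdgf1 also missed the threshold, with intervals of -0.12 to 0.46 and -0.47 to 0.43. Called higher in VitC/LIF were 5 of 14 members and lower none (median 0.13). Lin28a, the RNA-binding inhibitor of let-7 maturation, had 453 and 458 CPM in VitC/LIF and 137 and 127 CPM in 2i/LIF (log2 fold change 1.79 ± 0.13, adjusted p = 3.43e-05). Utf1, a chromatin factor of pluripotent cells, had 51.5 and 58.7 CPM in VitC/LIF and 13.98 and 17.0 CPM in 2i/LIF (log2 fold change 1.83 ± 0.18). The 2 genes were separated cleanly between the media. Trim71 and Zfp281 rose by smaller amounts (log2 fold changes 0.48 and 0.46). Both calls were lost in at least 3 of the 4 fits that left out 1 library.

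Primed epiblast genes were higher in VitC/LIF for 12 of 21 members and lower for 1, with a median log2 fold change of 1.28. Otx2 (ENSMUSG00000021848), a homeobox factor that drives exit from the naive state, had 24.1 and 20.6 CPM in VitC/LIF libraries, 2.22 and 2.24 CPM in 2i/LIF libraries and 19.7 and 20.1 CPM in FBS/LIF. The VitC/LIF libraries sat beside FBS/LIF and far above 2i/LIF (log2 fold change 3.32 ± 0.17, adjusted p = 8.84e-06). Fgf5, the classical marker of the primed epiblast, had 24 estimated counts over both VitC/LIF libraries and 0 over both 2i/LIF libraries. Against a floor of 3 counts over the group, this is at least 8.29-fold higher, although its level of 0.552 and 0.809 CPM in VitC/LIF was low. Sox4, a SoxC transcription factor, had 44.0 and 49.9 CPM in VitC/LIF and 4.50 and 5.99 CPM in 2i/LIF (log2 fold change 3.16 ± 0.18). Pou3f1 (Oct6) was also called higher, at 29.6 and 34.5 CPM in VitC/LIF and 1.01 and 1.90 CPM in 2i/LIF. Only 1.68% of its VitC/LIF estimate came from fragments that hit no other gene, so its count is uncertain. Etv5 and Zic2, also primed genes, missed the threshold with negative values (-0.32 and -0.52).

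**Figure D2:**
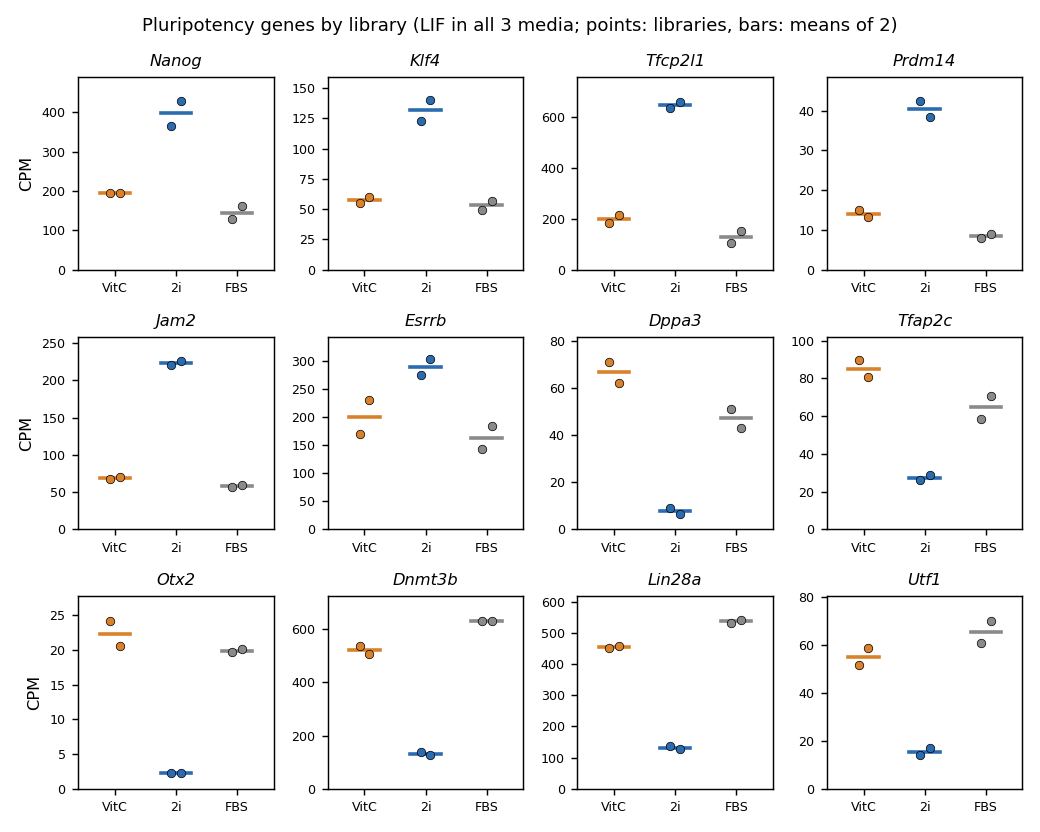
CPM of 12 pluripotency genes in each library of VitC/LIF (orange), 2i/LIF (blue) and FBS/LIF (grey), with bars at the mean of the 2 libraries; each panel has its own axis from 0. Nanog, Klf4, Tfcp2l1, Prdm14 and Jam2 are lower in VitC/LIF than in 2i/LIF, Dppa3, Tfap2c, Otx2, Dnmt3b, Lin28a and Utf1 are higher, and Esrrb did not pass the test.

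Enzymes that set DNA methylation differed strongly. Dnmt3a (ENSMUSG00000020661), a de novo methyltransferase, had 158 and 199 CPM in VitC/LIF libraries, 25.5 and 20.1 CPM in 2i/LIF libraries and 144 and 168 CPM in FBS/LIF. Dnmt3b, the other de novo enzyme, had 535 and 508 CPM in VitC/LIF, 137 and 125 CPM in 2i/LIF and 632 and 630.3 CPM in FBS/LIF. Both were higher in VitC/LIF, by 7.82-fold and 3.97-fold (log2 fold changes 2.97 ± 0.23 and 1.99 ± 0.14, adjusted p = 5.48e-05 and 3.05e-05). Dnmt1, the maintenance enzyme, had 501 and 525 CPM in VitC/LIF and 550.5 and 539 CPM in 2i/LIF, with an interval of -0.38 to 0.21 for the log2 fold change. The Tet dioxygenases, which need iron and are stimulated by vitamin C, did not move together. Tet2 had 126 and 150.4 CPM in VitC/LIF and 272 and 278 CPM in 2i/LIF and was lower (log2 fold change -0.99 ± 0.19). Tet3 was higher at a low level (4.58 and 5.55 CPM in VitC/LIF, 1.43 and 1.79 CPM in 2i/LIF, log2 fold change 1.65 ± 0.46). The Tet2 call was lost in 1 of the 4 fits that left out 1 library, and the Tet3 call in all 4. Tet1 varied between replicates, with 278 and 376 CPM in VitC/LIF and 208 and 246 CPM in 2i/LIF, and missed the threshold (interval -0.34 to 1.39). Gadd45a, a stress-induced gene linked to demethylation, had 56.8 and 66.5 CPM in VitC/LIF and 13.8 and 16.8 CPM in 2i/LIF (log2 fold change 2.01 ± 0.22). In all, 6 of 12 members were higher and 2 lower. The lower member beside Tet2 was Uhrf1, named after its values were seen. It had 13092 estimated counts over both VitC/LIF libraries and 25966 over both 2i/LIF libraries (log2 fold change -0.94, adjusted p = 0.00137).

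Germline genes whose promoters are known to be silenced by methylation were higher in VitC/LIF for 17 of the 23 members tested (of 28 listed) and lower for none. The median log2 fold change was 1.63, against 0.045 over all genes. Their summed expression was 444 and 417 CPM in VitC/LIF, 268 and 245 CPM in 2i/LIF and 284 and 259.7 CPM in FBS/LIF. Of the 17 calls, 9 held in all 4 fits that left out 1 library. The promoters of the 3 called members with the largest change are shown as examples of the list, each from 250 bases before to 50 bases after the first listed start (RefSeq, GRCm38.p6). They are Stra8 (chr6:34920698-34920997, plus strand), Smc1b (chr15:85131908-85132207, minus strand) and Tdrd1 (chr19:56825959-56826258, plus strand). Capitals mark the E-box letters CACGTG where a search of both strands found them; the sequence GCGCGAAA was also searched.
Stra8: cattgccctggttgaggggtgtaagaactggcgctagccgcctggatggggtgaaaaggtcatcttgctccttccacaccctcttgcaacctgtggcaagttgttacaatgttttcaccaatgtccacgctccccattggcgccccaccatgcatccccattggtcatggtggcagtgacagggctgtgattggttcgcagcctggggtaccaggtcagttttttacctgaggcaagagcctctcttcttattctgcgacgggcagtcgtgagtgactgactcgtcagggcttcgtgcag
Smc1b: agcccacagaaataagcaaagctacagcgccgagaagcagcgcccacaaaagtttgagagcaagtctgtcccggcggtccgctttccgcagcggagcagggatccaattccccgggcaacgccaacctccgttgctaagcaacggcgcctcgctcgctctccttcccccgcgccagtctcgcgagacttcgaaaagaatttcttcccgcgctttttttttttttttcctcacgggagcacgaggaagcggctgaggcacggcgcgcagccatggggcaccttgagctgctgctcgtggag
Tdrd1: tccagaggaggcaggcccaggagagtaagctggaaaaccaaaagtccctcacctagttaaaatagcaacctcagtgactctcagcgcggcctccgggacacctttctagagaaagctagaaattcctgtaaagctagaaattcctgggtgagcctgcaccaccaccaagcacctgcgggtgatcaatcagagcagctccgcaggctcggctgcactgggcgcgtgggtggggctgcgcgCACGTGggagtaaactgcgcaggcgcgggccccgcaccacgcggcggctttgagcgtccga
CACGTG stood at base 240 of the Tdrd1 window, 11 bases before the start, and neither motif occurred in the Stra8 or Smc1b window. Across the list, 12 of 24 promoters in the table (50%) held CACGTG, as did 9 of the 15 promoters of called members (60%), against 10% of the 11299 promoters of tested genes and 7.24% of all 27025. GCGCGAAA occurred in 1 of the 24 (4.17%), against 0.566% of the promoters of tested genes. Over all genes, CACGTG stood in 10.9% of promoters of genes called higher in VitC/LIF, 9.39% of those called lower and 9.93% of those not called. Such a match describes the letters only.

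Stra8 (ENSMUSG00000029848), which meiotic entry in germ cells requires, had 26.0 and 23.9 CPM in VitC/LIF libraries, 0.583 and 0.504 CPM in 2i/LIF libraries and 5.36 and 4.08 CPM in FBS/LIF. The VitC/LIF libraries exceeded those of both other media (log2 fold change over 2i/LIF 5.50 ± 0.35, adjusted p = 2.27e-05). Smc1b, a meiotic cohesin subunit, had 11.5 and 11.8 CPM in VitC/LIF, 0.583 and 0.784 CPM in 2i/LIF and 2.63 and 2.86 CPM in FBS/LIF (log2 fold change 4.09 ± 0.42). Here FBS/LIF was nearer to 2i/LIF than to VitC/LIF on the log scale. Tdrd1, a Tudor protein of the piRNA pathway, had 2.87 and 3.35 CPM in VitC/LIF, 0.265 and 0.112 CPM in 2i/LIF and 5.68 and 5.71 CPM in FBS/LIF (log2 fold change 3.99 ± 0.35). For this gene FBS/LIF was the highest of the 3 media. Tdrkh (log2 fold change 2.96 ± 0.41), also of the piRNA pathway, and the germ cell nucleotide carrier Slc25a31 (2.93 ± 0.69) were called at low levels, the second lost in 2 of the 4 fits that left out 1 library. Tex15 and Hsf2bp, both meiotic recombination genes, were the most abundant members that missed the threshold, with intervals of -0.97 to -0.12 and -0.13 to 0.49. FBS/LIF was nearer to 2i/LIF, or beyond it, for 6 of the 17 called members: Smc1b, Dazl, Hormad1, Rpl10l, Piwil2 and Tex11, the last 5 named after their values were seen. Piwil2, a piRNA-binding protein, averaged 24.3 ± 1.08 CPM in VitC/LIF, 5.46 ± 0.756 CPM in 2i/LIF and 11.5 ± 1.92 CPM in FBS/LIF (SD, n = 2 each). Over all called genes that share was 6.46%.

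Imprinted genes, expressed from 1 parental allele under the control of inherited methylation, were higher in VitC/LIF for 13 of 21 tested members and lower for 1 (median 1.47). Another 4 of the 25 listed are not analysed here. Grb10 (ENSMUSG00000020176), an adaptor that damps insulin signalling, had 334 and 301 CPM in VitC/LIF libraries, 36.3 and 43.2 CPM in 2i/LIF libraries and 381 and 529 CPM in FBS/LIF. Its VitC/LIF values were 7.98-fold above 2i/LIF (log2 fold change 2.997 ± 0.18, adjusted p = 1.83e-05). Cdkn1c, the cell cycle inhibitor p57, had 32.7 and 30.8 CPM in VitC/LIF and 2.38 and 1.74 CPM in 2i/LIF (log2 fold change 3.94 ± 0.18). Phlda2, its neighbour in the same imprinted cluster and a restrainer of placental growth, had 22.6 and 23.4 CPM in VitC/LIF and 2.01 and 1.51 CPM in 2i/LIF (log2 fold change 3.70 ± 0.17). Both were higher still in FBS/LIF, at 69.7 and 60.1 CPM for Cdkn1c and 49.5 and 43.4 CPM for Phlda2. Nnat (3.44) and Mest (2.89) rose as well. Impact and Gnas missed the threshold, with intervals of 0.10 to 0.63 and -0.12 to 0.41. Plagl1 was the single member called lower (log2 fold change -2.42 ± 0.30), named after its values were seen. The libraries carry no allele information.

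**Figure D3:**
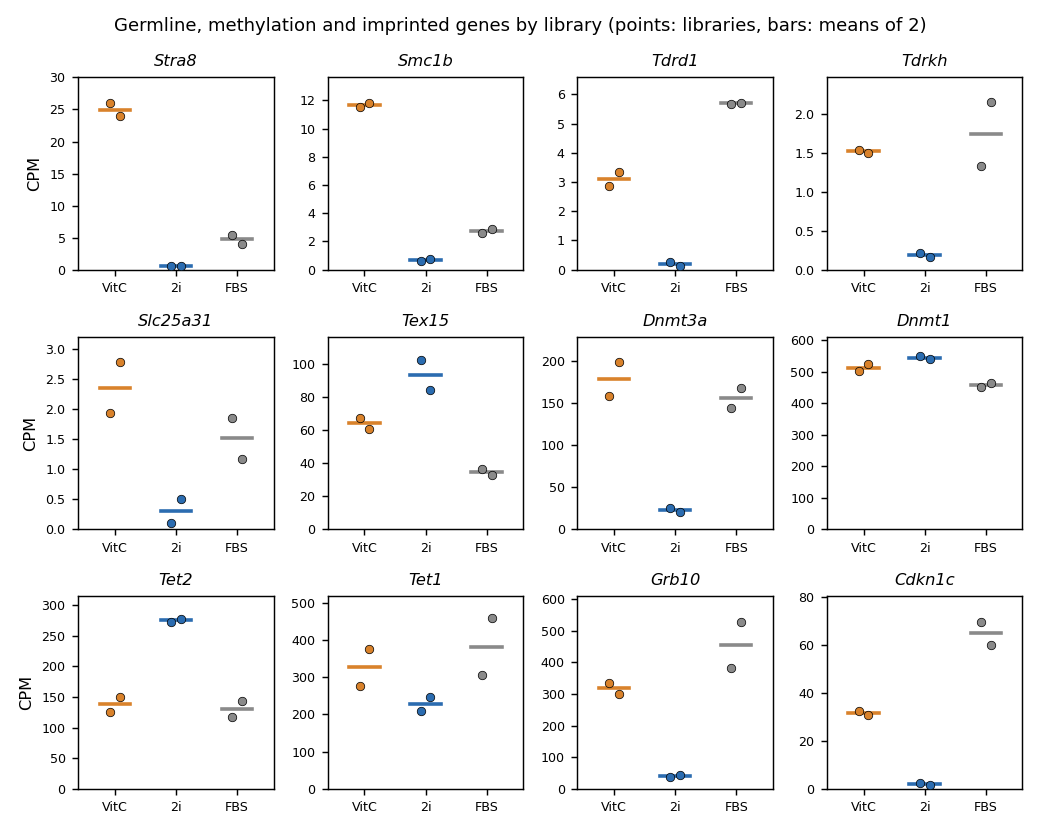
CPM of 12 germline, methylation-enzyme and imprinted genes in each library of VitC/LIF (orange), 2i/LIF (blue) and FBS/LIF (grey), with bars at the mean of the 2 libraries; each panel has its own axis from 0. Stra8 and Smc1b are highest in VitC/LIF, Dnmt3a and Grb10 are higher in VitC/LIF and FBS/LIF than in 2i/LIF, Tet2 is lower, and Tex15, Dnmt1 and Tet1 did not pass the test.

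Feedback targets of FGF and ERK signalling, the route that 2i blocks at MEK, were higher in VitC/LIF for 13 of 23 members and lower for 1 (median 1.27). Dusp4 (ENSMUSG00000031530), a phosphatase that switches off ERK, had 14.9 and 13.6 CPM in VitC/LIF libraries, 0.741 and 1.01 CPM in 2i/LIF libraries and 14.4 and 15.8 CPM in FBS/LIF. The VitC/LIF and FBS/LIF libraries were alike in level and well above 2i/LIF (log2 fold change 4.02 ± 0.17, adjusted p = 5.81e-06). Dusp5, an inducible ERK phosphatase, had 11.2 and 11.4 CPM in VitC/LIF and 1.48 and 1.62 CPM in 2i/LIF (log2 fold change 2.86 ± 0.26). Spry4, an intracellular inhibitor of the receptor pathway, had 28.6 and 45.1 CPM in VitC/LIF and 4.87 and 5.88 CPM in 2i/LIF (log2 fold change 2.77 ± 0.41). Both were separated between the media, although the VitC/LIF libraries differed from each other for Spry4. At the low end, Fosl1 had 7 counts in VitC/LIF and 0 in 2i/LIF, at least 2.42-fold higher, a call lost in every fit that left out 1 library. Fgfbp3 had 24 and 3 counts, a ratio of 8.29 (95% counting interval 2.52 to 43.0). Some abundant ERK targets missed the threshold. Etv5 had 349.9 and 328 CPM in VitC/LIF and 419.6 and 427 CPM in 2i/LIF, and the cyclin D1 gene Ccnd1 had 172 and 184 CPM in VitC/LIF and 149 and 159.8 CPM in 2i/LIF. Neither passed, with intervals of -0.68 to 0.03 and -0.15 to 0.56.

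Targets of Wnt and beta-catenin, the route that GSK3 inhibition opens, were lower in VitC/LIF for 10 of 20 members and higher for 2 (median -1.38). The promoters of Sp5 (chr2:70474673-70474972, plus strand) and Axin2 (chr11:108920099-108920398, plus strand) are shown because these genes are among the called Wnt targets with the largest fall, in the same windows and build. Capitals mark the TCF letters ATCAAAG, read on either strand.
Sp5: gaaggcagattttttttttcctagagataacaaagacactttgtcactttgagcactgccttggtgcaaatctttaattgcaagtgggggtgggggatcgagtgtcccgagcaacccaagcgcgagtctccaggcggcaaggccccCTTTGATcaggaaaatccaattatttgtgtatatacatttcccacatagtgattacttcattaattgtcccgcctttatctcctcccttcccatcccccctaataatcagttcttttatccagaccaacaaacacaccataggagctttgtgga
Axin2: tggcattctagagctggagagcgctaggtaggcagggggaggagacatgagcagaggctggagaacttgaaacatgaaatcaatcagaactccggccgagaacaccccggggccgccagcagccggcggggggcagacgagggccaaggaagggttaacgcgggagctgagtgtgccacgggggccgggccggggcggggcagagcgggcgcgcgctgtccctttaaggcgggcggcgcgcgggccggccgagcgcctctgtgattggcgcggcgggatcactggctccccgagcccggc
The Sp5 window held 1 match on the opposite strand, CTTTGAT at base 147, which lies 104 bases before the start, and the Axin2 window held none. Among the Wnt list, 2 of 12 promoters (16.7%) held ATCAAAG, against 2.54% of the promoters of tested genes. Over all genes, the letters stood in 2% of promoters of genes called lower in VitC/LIF, 2.04% of those called higher and 2.72% of those not called.

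Axin2 (ENSMUSG00000000142), the feedback scaffold of beta-catenin destruction, had 3.20 and 4.22 CPM in VitC/LIF libraries, 40.5 and 45.5 CPM in 2i/LIF libraries and 3.97 and 3.79 CPM in FBS/LIF. VitC/LIF and FBS/LIF lay together, 11.6-fold below 2i/LIF in the case of VitC/LIF (log2 fold change -3.53 ± 0.22, adjusted p = 1.83e-05). Sp5, a Wnt-induced repressor, had 0.993 and 0.925 CPM in VitC/LIF and 17.2 and 20.4 CPM in 2i/LIF (log2 fold change -4.28 ± 0.28). Cdx1, a caudal homeobox gene, had 0.993 and 0.925 CPM in VitC/LIF and 25.5 and 25.8 CPM in 2i/LIF (log2 fold change -4.73 ± 0.36). Cdx2, its relative, had 0.386 and 0.983 CPM in VitC/LIF and 8.47 and 7.28 CPM in 2i/LIF (log2 fold change -3.52 ± 0.41). All 4 genes were high in 2i/LIF and low in VitC/LIF, with no overlap. The list was not uniform. Fgf15, named after its values were seen, was higher, with 2.81 and 2.31 CPM in VitC/LIF and 0.371 and 0.392 CPM in 2i/LIF (log2 fold change 2.73 ± 0.35). Lgr5, a stem cell receptor for R-spondin, had 11 counts in VitC/LIF and 0 in 2i/LIF, at least 3.80-fold higher. The Lgr5 call was lost in every fit that left out 1 library. Znrf3, a ubiquitin ligase that removes Wnt receptors, had 12.7 and 15.4 CPM in VitC/LIF and 14.7 and 13.4 CPM in 2i/LIF, with an interval of -0.85 to 0.85.

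Mesendoderm genes, which mark the primitive streak, overlapped with that list and were lower in VitC/LIF for 8 of 14 tested members and higher for none (median -2.02). T (ENSMUSG00000062327), Brachyury, had 0.331 and 0.405 CPM in VitC/LIF libraries, 3.44 and 4.15 CPM in 2i/LIF libraries and 0.647 and 0.796 CPM in FBS/LIF (log2 fold change -3.35 ± 0.22, adjusted p = 2.63e-05). Its level was low in 2i/LIF and lower still in VitC/LIF and FBS/LIF. Eomes, a T-box factor of the streak and the trophectoderm, had 2.48 and 2.77 CPM in VitC/LIF and 13.8 and 14.3 CPM in 2i/LIF (log2 fold change -2.42 ± 0.17). Wnt3a and Mixl1 stayed below 1 CPM in every library of both media and missed the threshold (interval -1.15 to 1.43 and -0.71 to 1.67). Hox genes were barely expressed: 8 of the 24 with an identifier were tested, 3 were called lower and none higher.

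The remaining signalling lists were mixed in direction. Their shares called were 38.9% for LIF and STAT3 targets, 41.7% for BMP and Id genes and 50% for Nodal and activin targets. The share of all genes tested was 24.5%. LIF and STAT3 targets had 4 of 18 members higher and 3 lower (median close to 0). Stat3 itself had 94.1 and 97.9 CPM in VitC/LIF and 105 and 101 CPM in 2i/LIF (interval -0.38 to 0.18), and the LIF co-receptor gene Il6st missed the threshold too (-0.55 to -0.05). Junb, an AP-1 subunit, was higher (log2 fold change 1.71 ± 0.18), as were the kinase gene Pim3 (1.27 ± 0.11) and the cytokine-inducible inhibitor Cish (3.92 ± 0.80), the last lost in 1 fit that left out a library. In the BMP and Id list, 3 of 12 members were higher and 2 lower. Id1, an inhibitor of differentiation and a BMP target, had 27.9 and 19.1 CPM in VitC/LIF and 2.91 and 3.14 CPM in 2i/LIF (log2 fold change 2.96 ± 0.20, adjusted p = 3.05e-05). Id2 followed it (log2 fold change 2.49 ± 0.20), whereas Id4 was lower (-1.30 ± 0.23) and Id3 missed the threshold (interval -0.98 to 0.16). The 4 Id genes thus did not move as one. Of the Nodal and activin targets, 4 of 14 tested were higher and 3 lower (median -0.01). Inhbb, an activin subunit, had 77.0 and 79.2 CPM in VitC/LIF and 5.51 and 5.04 CPM in 2i/LIF (log2 fold change 3.89 ± 0.13, adjusted p = 2.74e-06). Fst, the secreted activin antagonist follistatin, ran the other way, with 7.72 and 5.20 CPM in VitC/LIF and 37.4 and 42.6 CPM in 2i/LIF (log2 fold change -2.63 ± 0.19). Lefty1, a Nodal-induced antagonist, was higher (log2 fold change 2.35 ± 0.15).

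Among genes tied to vitamin C itself, a transporter differed most. Slc23a1 (ENSMUSG00000024354), a sodium-dependent vitamin C transporter, had 13.7 and 16.4 CPM in VitC/LIF libraries, 1.01 and 0.728 CPM in 2i/LIF libraries and 22.1 and 18.7 CPM in FBS/LIF. It was higher in VitC/LIF (log2 fold change 4.10 ± 0.23, adjusted p = 1.35e-05) and also high without added vitamin C. Slc23a2, the other sodium-dependent transporter, had 50.8 and 47.6 CPM in VitC/LIF and 58.5 and 55.6 CPM in 2i/LIF and missed the threshold (interval -0.45 to 0.02). Gulo, the last enzyme of vitamin C synthesis, missed it as well (interval -0.95 to 0.58). Among JmjC demethylases and prolyl hydroxylases, 5 of 22 tested members were lower, 1 was higher and 16 were not called (median -0.18). The share called, 27.3%, was close to the 24.5% of all genes tested. Kdm4b, a demethylase of histone H3 lysine 9, had 30.2 and 27.3 CPM in VitC/LIF and 67.6 and 59.7 CPM in 2i/LIF (log2 fold change -1.15 ± 0.11). Kdm3a and Kdm3b, of the same substrate, fell too (log2 fold change -0.83 ± 0.11 and -0.98 ± 0.17). So did Egln1, the oxygen-sensing hydroxylase of hypoxia-inducible factor (log2 fold change -1.06 ± 0.17). Kdm4c was the single member called higher (log2 fold change 0.34, adjusted p = 0.0442). Its relative Kdm4a was not called (-0.12). Both were named after their values were seen.

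Glycolysis genes were lower in VitC/LIF for 14 of 20 members and higher for none, with a median log2 fold change of -0.77. Summed over the list, expression was 8319 and 8047 CPM in VitC/LIF, 14489 and 13106 CPM in 2i/LIF and 12499 and 11596 CPM in FBS/LIF. Both VitC/LIF libraries were the lowest of the 6. Aldoa (ENSMUSG00000030695), an aldolase, had 495 and 446 CPM in VitC/LIF libraries, 1246 and 1149 CPM in 2i/LIF libraries and 778 and 735 CPM in FBS/LIF (log2 fold change -1.35 ± 0.17, adjusted p = 0.000783). Tpi1, triosephosphate isomerase, had 203 and 203 CPM in VitC/LIF, 596 and 526 CPM in 2i/LIF and 416 and 368 CPM in FBS/LIF (log2 fold change -1.47 ± 0.22). Pfkl, the liver-type phosphofructokinase, had 107 and 97.7 CPM in VitC/LIF, 278 and 268 CPM in 2i/LIF and 237 and 249 CPM in FBS/LIF (log2 fold change -1.42 ± 0.17). In each of these the mean of FBS/LIF stood nearer to 2i/LIF than to VitC/LIF on the log scale, for Aldoa by a small margin, as did the mean of 7 of the 14 called members, against 6.46% of all called genes. Aldoc (log2 fold change -1.72 ± 0.23) and Eno2 (-1.40 ± 0.32) were lower too, the second lost in 2 fits that left out a library. Slc2a1, the glucose transporter Glut1, and the hexokinase gene Hk2 missed the threshold (interval -0.20 to 0.32 and -0.67 to 0.12). Gapdh also missed it (interval -0.55 to 0.52), and only 11.6% of its estimate in 2i/LIF came from unique fragments.

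The hypoxia response list, which shares glycolytic genes, had 11 of 26 members lower and 2 higher (median -0.48). Among the lower members, Kdm3a, Egln1 and P4ha1 are also counted in the list of JmjC demethylases and prolyl hydroxylases. P4ha1, a collagen prolyl hydroxylase and a target of hypoxia-inducible factor, had 18.1 and 17.2 CPM in VitC/LIF, 45.0 and 46.7 CPM in 2i/LIF and 35.8 and 40.8 CPM in FBS/LIF (log2 fold change -1.37 ± 0.14, adjusted p = 0.000211). Ankrd37 was lower as well (log2 fold change -1.54 ± 0.29). Pdk1, the kinase that holds pyruvate out of the mitochondrion, was the main exception, with 281 and 256 CPM in VitC/LIF and 102 and 93.9 CPM in 2i/LIF (log2 fold change 1.45 ± 0.15). The carbonic anhydrase gene Car12 was the other (log2 fold change 3.38 ± 0.33). The hypoxia core letters ACGTG, which are also part of CACGTG, stood on either strand in 14 of 22 promoters of the list (63.6%), against 25% for tested genes. Nuclear genes of oxidative phosphorylation gave 1 call, lower, among 27 (median -0.08). That gene was Cox5a (log2 fold change -0.58 ± 0.13), lost in every fit that left out 1 library. Among 13 mitochondrially encoded genes 1, mt-Co1, was called lower (log2 fold change -0.61 ± 0.14), in 1 of those 4 fits.

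**Figure D4:**
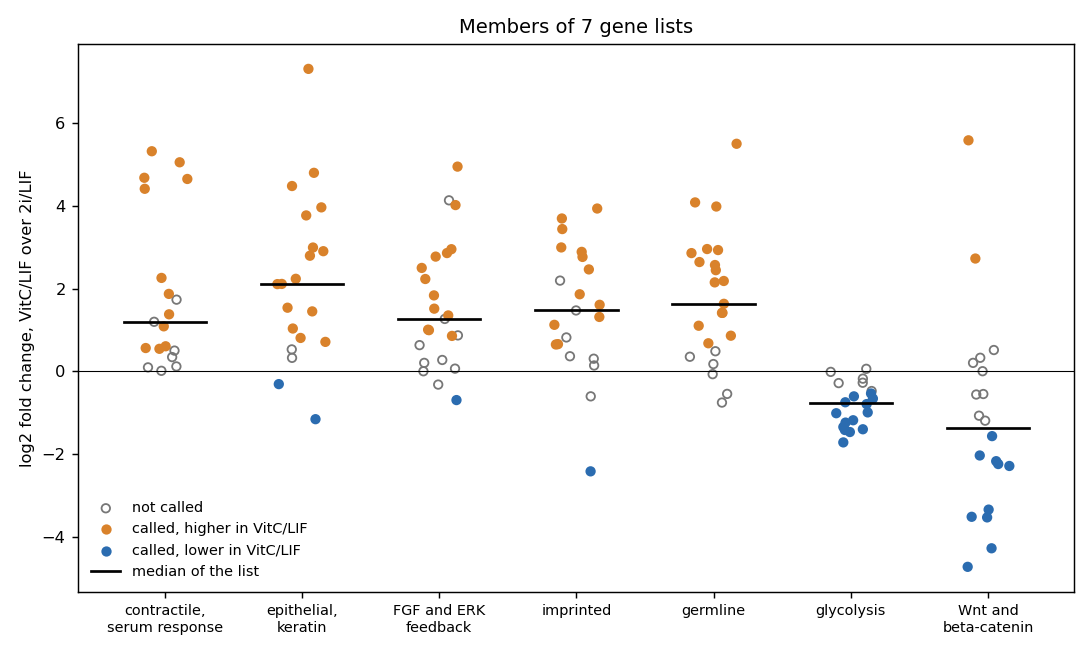
Log2 fold changes (VitC/LIF over 2i/LIF, edgeR estimates) of the tested members of 7 gene lists, each point a gene, with bars at the median of the list. Filled points passed the test (orange higher, blue lower in VitC/LIF) and open points did not; glycolysis and Wnt members lie mostly below 0 and members of the other lists mostly above it. Points of genes without counts in a medium are fitted values, not bounds.

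Genes of amino acid metabolism gave a divided response. Of 31 members of the ATF4 amino acid response, 15 were higher in VitC/LIF and 2 lower (median 0.48). Chac1, which breaks down glutathione, had 11.4 and 8.84 CPM in VitC/LIF and 1.96 and 1.90 CPM in 2i/LIF (log2 fold change 2.38 ± 0.28). Cebpb (log2 fold change 2.79 ± 0.40), the cystine transporter Slc7a11 (2.39 ± 0.41) and Atf3 (1.70 ± 0.24) were higher too. Asns (ENSMUSG00000029752), asparagine synthetase and a known ATF4 target, opposed them with 241 and 216 CPM in VitC/LIF, 893 and 884 CPM in 2i/LIF and 237 and 218 CPM in FBS/LIF. Its log2 fold change was -1.96 ± 0.15 (adjusted p = 4.4e-05), and VitC/LIF lay beside FBS/LIF. Atf4 mRNA itself missed the threshold (interval -0.22 to 0.44). In proline metabolism 4 of 13 tested members were higher and 2 lower, a share called of 46.2%. Oat, ornithine aminotransferase, had 40.0 and 34.7 CPM in VitC/LIF and 158 and 140.2 CPM in 2i/LIF (log2 fold change -1.996 ± 0.16, adjusted p = 6.02e-05). Prodh, the first enzyme of proline breakdown, was higher (log2 fold change 0.68 ± 0.19), a call lost in every fit that left out 1 library. Of 23 cholesterol synthesis genes, 4 were higher and 2 lower (median 0.10). Their share called, 26.1%, was close to the 24.5% of all genes tested.

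Epithelial and keratin genes were higher in VitC/LIF for 16 of 20 members and lower for 2 (median 2.11). Grhl2 (ENSMUSG00000022286), a transcription factor of epithelial identity, had 52.2 and 55.2 CPM in VitC/LIF libraries, 2.33 and 2.46 CPM in 2i/LIF libraries and 73.6 and 72.2 CPM in FBS/LIF (log2 fold change 4.48 ± 0.13, adjusted p = 2.51e-06). Cldn6, a claudin of pluripotent and embryonic epithelia, had 47.3 and 35.8 CPM in VitC/LIF and 1.91 and 3.42 CPM in 2i/LIF (log2 fold change 3.97 ± 0.27). Cldn7, another tight junction gene, had 16.8 and 14.5 CPM in VitC/LIF and 1.48 and 0.784 CPM in 2i/LIF (log2 fold change 3.77 ± 0.24). In all 3 the media were apart by more than 10-fold. Krt18, a simple epithelial keratin, had 37.1 and 46.0 CPM in VitC/LIF and 7.94 and 3.98 CPM in 2i/LIF (log2 fold change 2.80 ± 0.31). Ovol1 had 33 counts in VitC/LIF and 1 in 2i/LIF, a ratio of 34.2 (95% counting interval 5.73 to 1392). Cdh1, the gene of E-cadherin, had 159 and 157 CPM in VitC/LIF and 95.8 and 123 CPM in 2i/LIF and missed the threshold (interval -0.15 to 1.21).

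Contractile and serum response genes, targets of the factor SRF, were higher in VitC/LIF for 12 of 19 tested members and lower for none (median 1.20). Tagln (ENSMUSG00000032085), the actin-binding protein SM22, had 112 and 104 CPM in VitC/LIF libraries, 3.07 and 2.30 CPM in 2i/LIF libraries and 106 and 94.0 CPM in FBS/LIF (log2 fold change 5.32 ± 0.21, adjusted p = 5.43e-06). Acta2, smooth muscle actin, had 29.2 and 31.3 CPM in VitC/LIF, 1.06 and 1.29 CPM in 2i/LIF and 7.25 and 7.49 CPM in FBS/LIF (log2 fold change 4.68 ± 0.25). VitC/LIF was thus above FBS/LIF as well as 2i/LIF for Acta2. Calponin (Cnn1, log2 fold change 5.06 ± 0.48), the myosin light chain gene Myl9 (4.42 ± 0.23) and thrombospondin 1 (Thbs1, 4.65 ± 0.25) rose with them. The cytoplasmic actin gene Actb and the filamin gene Flna missed the threshold (interval -0.19 to 0.43 and -0.03 to 0.72). Collagen and matrix genes had 7 of 23 members higher and 5 lower, and mesenchymal genes 4 of 17 higher and 2 lower. Their shares called were 52.2% and 35.3%, against 24.5% of all genes tested. S100a6, a calcium-binding protein, had 26.8 and 27.7 CPM in VitC/LIF and 2.97 and 2.63 CPM in 2i/LIF, and Mmp14, a membrane-bound matrix protease, had 20.2 and 20.7 CPM in VitC/LIF and 5.14 and 5.21 CPM in 2i/LIF. Both were higher (log2 fold changes 3.28 ± 0.34 and 1.98 ± 0.13), as were the collagen genes Col6a1 and Col1a1, given with the fibroblast markers. Vim, vimentin, had 64.2 and 62.1 CPM in VitC/LIF and 196 and 202 CPM in 2i/LIF and was lower (log2 fold change -1.65 ± 0.13, adjusted p = 4.88e-05). Fn1, fibronectin, had 159.9 and 181 CPM in VitC/LIF and 390.4 and 380.1 CPM in 2i/LIF without overlap, and missed the threshold (interval -2.08 to -0.28, adjusted p = 0.0615). Zeb1 was called lower, but almost none of its estimate came from unique fragments, and on unique fragments alone its log2 fold change was 0.00 (adjusted p = 1).

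Markers of other cell types were examined beside these groups. Of 16 fibroblast markers 13 were tested, 4 were higher in VitC/LIF and 1 was lower, a share called of 38.5%. Their summed level was 28.0 and 23.6 CPM in VitC/LIF, 27.2 and 23.8 CPM in 2i/LIF and 28.9 and 25.6 CPM in FBS/LIF, so the ranges of VitC/LIF and 2i/LIF overlapped. Col6a1 had 26 counts in VitC/LIF and 0 in 2i/LIF, at least 8.99-fold higher, and Col1a1 had 2.21 and 2.54 CPM in VitC/LIF and 0.847 and 0.560 CPM in 2i/LIF (log2 fold change 1.74 ± 0.41). These calls held in 1 and 2 of the 4 fits that left out a library. Postn and Fap had 0 counts in both media. Col3a1 had 1 count in VitC/LIF and 0 in 2i/LIF. Mmp2 (log2 fold change 2.08 ± 0.25) and Thy1 (34 and 3 counts, ratio 11.8, interval 3.70 to 59.8) were the others higher, and Pdgfrb (-1.79 ± 0.36) was lower, in 3 of the 4 fits that left out a library. Primitive endoderm genes summed to 1168 and 1229 CPM in VitC/LIF and 1201 and 1189.8 CPM in 2i/LIF. Of 18 tested members, 2 were higher and 1 lower, a share called of 16.7% against 24.5% of all genes tested. Apoe, a large part of that sum, averaged 609.8 ± 17.8 CPM in VitC/LIF and 442 ± 32.5 CPM in 2i/LIF (SD, n = 2 each). It missed the threshold. Cubn, an endocytic receptor of the visceral endoderm, had 2.10 and 5.95 CPM in VitC/LIF and 0 and 0.448 CPM in 2i/LIF, and was higher with a wide gap between the VitC/LIF libraries (log2 fold change 4.16 ± 0.88, called in 3 of the 4 fits that left out a library). Dab2, an adaptor of the same receptor that was named after its values were seen, averaged 2.76 ± 2.81 CPM in VitC/LIF and 0.247 ± 0.125 CPM in 2i/LIF and missed the threshold (adjusted p = 0.0519). The endoderm factor Gata6 had 15 counts in VitC/LIF and 7 in 2i/LIF. The laminin gene Lamb1 was higher (log2 fold change 1.78 ± 0.17), and the matrix gene Sparc was the member called lower (-0.92, adjusted p = 0.00771). The laminin genes Lamc1 and Lama1 had negative values and missed the threshold (-0.86 and -0.63), the second named after its values were seen. Trophectoderm genes had 1 of 10 tested members higher and 4 lower, and summed to 17.0 and 22.8 CPM in VitC/LIF and 52.7 and 48.8 CPM in 2i/LIF. The lower members were Eomes and Cdx2, named above and also counted among the mesendoderm genes, Tead4 (log2 fold change -1.48 ± 0.24) and Tfap2a. Tfap2a had 2 counts in VitC/LIF and 54 in 2i/LIF, a ratio of 26.0 for 2i/LIF over VitC/LIF (interval 6.87 to 221). The keratin gene Krt7 was the member called higher (log2 fold change 2.24, adjusted p = 0.00334). Among neuroectoderm genes, 3 of 5 tested were higher and none lower, led in level by Tubb3 and Nes (log2 fold change 1.48 ± 0.19 and 1.71 ± 0.18), with summed levels of 167 and 154 CPM in VitC/LIF and 54.1 and 53.7 CPM in 2i/LIF. Neurog2, a marker of neural progenitors, had 0 counts in both media. The part of other cell types in the results was not tested, and in these bulk samples fewer cells of a type cannot be told apart from less RNA per cell.

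**Figure D5:**
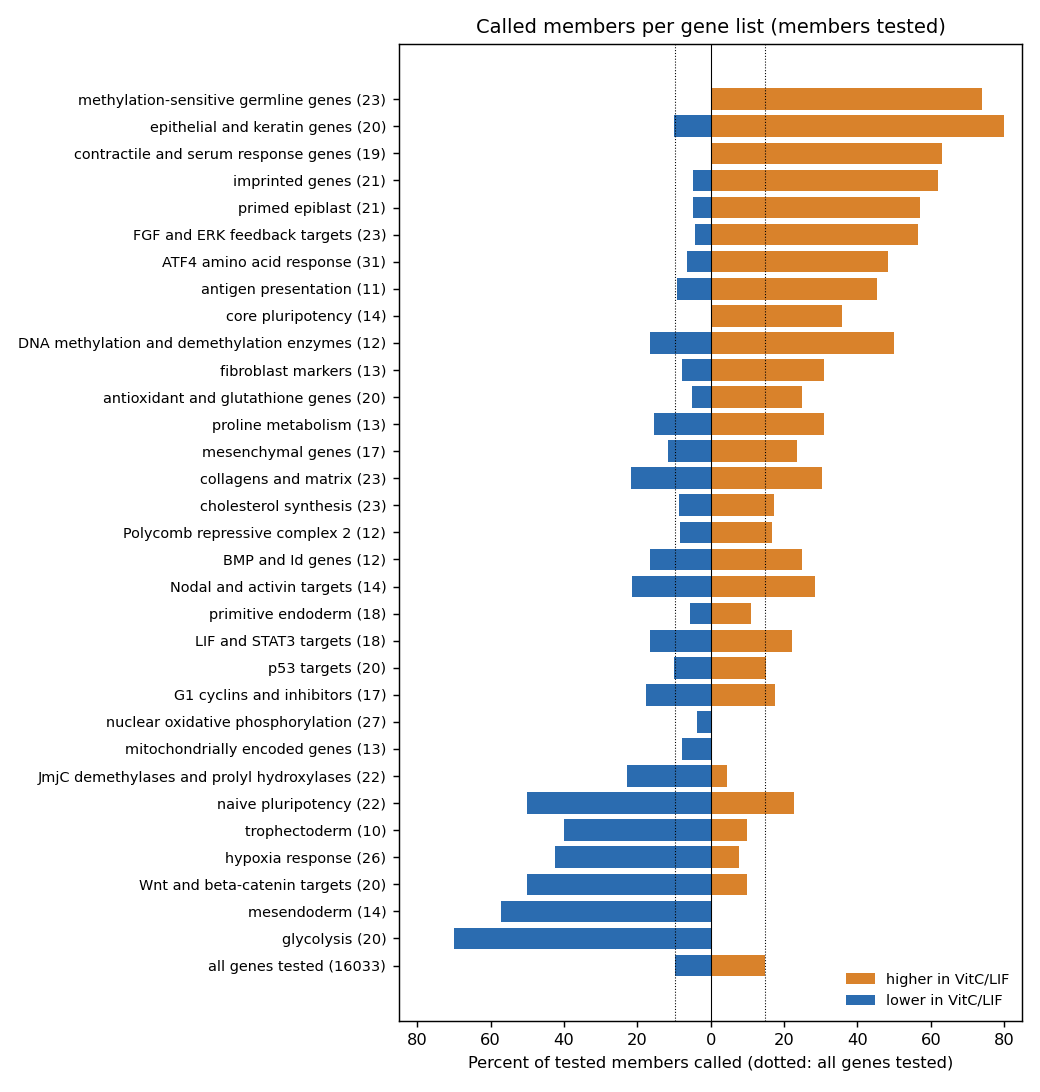
Percent of the tested members of each gene list called higher (orange, to the right) or lower (blue, to the left) in VitC/LIF than in 2i/LIF, with the number tested in brackets, for lists with at least 10 tested members. Dotted lines mark the 14.9% higher and 9.62% lower of all genes tested; germline, epithelial and contractile genes extend farthest to the right and glycolysis and mesendoderm genes farthest to the left.

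The further lists had calls in both directions or few calls. Of 20 p53 targets, 3 were higher and 2 lower (median -0.05), a share called of 25% against 24.5% of all genes tested. Perp, a desmosomal p53 target, was higher (log2 fold change 1.81 ± 0.12), and Sesn1 was lower (-0.998 ± 0.14). Of 20 antioxidant and glutathione genes, 5 were higher and 1 lower, a share called of 30%. Txnrd1, thioredoxin reductase, had 330.1 and 335 CPM in VitC/LIF and 185 and 186 CPM in 2i/LIF (log2 fold change 0.84 ± 0.13, adjusted p = 0.00188). No metallothionein or zinc transporter among 8 passed edgeR's test. Polycomb repressive complex 2 had 2 of 12 members higher and 1 lower, a share called of 25%, also close to that of all genes tested. Its largest change was that of Phf19, given above among the steepest rises (log2 fold change 5.23, adjusted p = 5.81e-06). Jarid2, which recruits the complex, was among the higher ones (log2 fold change 0.98 ± 0.20), in 2 of the 4 fits that left out a library. The accessory subunit gene Mtf2 was lower (log2 fold change -0.47 ± 0.11), in none of them. Of 17 G1 cyclins and inhibitors, 3 were higher and 3 lower, a share called of 35.3%. Cyclin D2 (Ccnd2) had 6.90 and 9.83 CPM in VitC/LIF, 0.424 and 0.392 CPM in 2i/LIF and 10.1 and 15.97 CPM in FBS/LIF (log2 fold change 4.33 ± 0.59, adjusted p = 0.000978). Cyclin E1 (Ccne1) had 224 and 211 CPM in VitC/LIF and 93.8 and 101 CPM in 2i/LIF (log2 fold change 1.16 ± 0.11). Both cyclin genes were higher in VitC/LIF, while Cdkn1a, the inhibitor p21, was lower (log2 fold change -1.33 ± 0.40) in the full fit and in no fit that left out 1 library. Class I antigen presentation had 5 of 11 members higher and 1 lower, a share called of 54.5%. The immunoproteasome subunit gene Psmb8 had 69 and 2 counts, a ratio of 35.8 (95% counting interval 9.53 to 301). H2-K1, a class I heavy chain, had 22.2 and 19.1 CPM in VitC/LIF and 11.5 and 9.97 CPM in 2i/LIF (log2 fold change 0.94 ± 0.18), in 3 of the 4 fits. Of the 4 tested genes of the 2-cell-like state, Zscan4f was called higher (11.8 and 13.6 CPM in VitC/LIF, 5.30 and 7.95 CPM in 2i/LIF), in 1 of the 4 fits. Only 14.00% of the Zscan4f estimate came from unique fragments, and on unique fragments alone the call was lost (adjusted p = 0.0772), so its count is uncertain.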

How the data were processed

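Total RNA from 5 media, 2 libraries each, was sequenced; VitC/LIF and 2i/LIF are compared here. The authors deposited 1 gene-level table per library. Per the file headers it holds the natural log of expression in FPKM units, a count of unique hits and an effective length for 37991 Ensembl genes. The submitters' processing notes name mm9 (NCBIM37), CASAVA, Bowtie, TopHat2 2.0.13, HTSeq 0.6.1p1 and DESeq with no roles; the strand setting is not given in the sources used here. Estimated counts were taken back as expression times effective length times mapped fragments, then rounded; they are 98.7% to 99.5% of the mapped fragments.

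Genes kept by filterByExpr were scaled by TMM and tested with edgeR 4.0.16 (quasi-likelihood F test, 2-sided, R 4.3.3). All 10 libraries entered a single fit with a coefficient for each medium, and the threshold was a Benjamini-Hochberg adjusted p under 0.05. The shallowest of them, replicate 1 of the medium with FGF and activin, had 6937945 mapped fragments, and the rest had 17778399 to 26354444. The fit had 5 residual degrees of freedom and a biological coefficient of variation of 0.238. The SE is the size of the log2 fold change divided by the root of F, and SD is over 2 libraries. The labels do not say that replicates were separate cultures, so p-values measure only the spread between these libraries, which may be technical. On simulated data for VitC/LIF over 2i/LIF with 16033 genes, 27 of 100 genes changed by 1 on the log2 scale and 72 of 100 changed by 2 were recovered, with 6 false calls. Only these genes were changed there, and all others had equal means in every medium. In the data 24.5% of genes were called, so these rates do not give the power of the comparison.

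The members, 37 gene lists (613 genes, 15 of them without an identifier and not analysed here) and tests were chosen with earlier results of these data known. Named genes are the 12 highest and 12 lowest called genes that passed the stated limits (log2 CPM averaging 4 or more where higher, no overlap, at least 10% unique hits, no predicted genes or pseudogenes); up to 5 called members of each list with the largest change and 2 not called with the highest expression; and a panel of 9 genes. Genes with 0 counts in a medium are given as a lower bound, taking 3 counts for that medium, and those with 1 to 3 as a ratio with its 95% counting interval; both cover counting error only. Symbols were found for 32919 of the identifiers. Promoter letters come from RefSeq (GRCm38.p6), not the authors' build. Alternatives were DESeq2 1.42.0, relative log expression size factors, limma 3.58.1 on log2(FPKM + 1) and log2(FPKM + 0.1), no count filter, unique hits alone, other sets of libraries, each library left out and a replicate block. The 4 single libraries of double-positive cells in the series were not used.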

Additional observations from a re-analysis of the deposited data

How the results depend on the processing

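With 1 library left out, the lone library of that medium being assumed to vary like the rest, calls fell to between 2235 and 2381 (1440 to 1556 higher, 747 to 839 lower), against 3935 (2392 and 1543). The counts were 2381 and 2274 when VitC/LIF replicate 1 or 2 was left out, and 2235 and 2335 when 2i/LIF replicate 1 or 2 was. Such fits have fewer samples, and 971 of the called genes were called in none of them. The other alternatives stayed within 1.5 times the counts of calls: 4108 by DESeq2, 3927 with relative log expression factors, 3515 and 3277 by limma with 0.1 and 1 FPKM added, 4947 without the libraries in FGF and activin, 4882 with the 4 libraries alone, 3699 without a count filter and 4378 on unique hits. DESeq2 kept 3698 and unique hits 3725 of the 3935 genes.

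With the replicate number as a block, 3774 genes were called (2302 higher, 1472 lower), 3633 of them shared with the fit without it. The biological coefficient of variation was 0.189 with the block and 0.238 without it. Deviations from the group means of same-numbered VitC/LIF and 2i/LIF libraries correlated at 0.273 across genes (0.116 to 0.488 over the 10 pairs of media), but the labels do not pair the libraries. Esrrb passed with the block (adjusted p = 0.0204) and Fgf4 did not (0.0555).

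Of 226 named genes, 156 were called, and 111 of these in every alternative. The sign turned for 13, and the cause was not tested. Zeb1, called at -1.76, was 0.0044 on unique hits; the other 12 were not called. Znrf3 was -0.019 by DESeq2, -0.019 with relative log expression factors, -0.097 and -0.070 by limma with 0.1 and 1 added, -0.0060 without the FGF and activin libraries, -0.0195 with the 4 libraries alone and -0.0905 on unique hits. Slc39a10 was -0.0136 on unique hits. By limma with 0.1 and 1 added, Zic1 was -0.25 and -0.052, and Tdgf1 was 0.0087 and 0.0087. With 1 library left out, the log2 fold change ranged from -0.14 to 0.13 for Znrf3, -0.067 to 0.0204 for Tdgf1, -0.13 to 0.90 for Mixl1, -0.84 to 0.43 for Gata2, -4.14 to 0.086 for Pax3, -0.0915 to 0.068 for Gapdh, -0.18 to 0.0099 for Atp5a1, -0.39 to 0.096 for mt-Co2, -0.13 to 0.0118 for Aars, -0.0396 to 0.094 for Slc39a10 and -0.28 to 1.18 for Hoxd13. Depth limits genes near 1 CPM, where few counts carry each value.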

Other observations

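The gene groups below were chosen after their values were seen and get no test beyond that of each gene. Hedgehog pathway genes transmit a morphogen signal through the membrane protein Smo to Gli factors. Of 14 tested members, 6 were higher in VitC/LIF and 1 lower, a share called of 50% against 24.5% of all genes tested. Of these 7 calls, 4 held in all 4 fits that left out 1 library. Gli1, both effector and target, had 24.6 and 22.9 CPM in VitC/LIF libraries, 0.635 and 0.784 CPM in 2i/LIF libraries and 36.3 and 37.5 CPM in FBS/LIF (log2 fold change 5.05 ± 0.21). The receptor gene Ptch1 (1.63 ± 0.40), the ligand-binding inhibitor Hhip (2.13 ± 0.47) and Smo (1.30 ± 0.18) were higher too. All of these are feedback targets or components of the pathway, while Boc, a co-receptor, was lower (-1.40 ± 0.39) and the ligand Shh had 0 counts in both media.

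Rhox genes are a cluster of X-linked homeobox genes of the placenta and the gonads. All 4 that were tested, of 27 listed, were higher in VitC/LIF. Rhox6 had 33.8 and 27.0 CPM in VitC/LIF, 1.54 and 1.18 CPM in 2i/LIF and 12.4 and 8.90 CPM in FBS/LIF (log2 fold change 4.48 ± 0.29). Rhox9 had 15.8 and 16.4 CPM in VitC/LIF, 0.583 and 0.448 CPM in 2i/LIF and 7.67 and 6.65 CPM in FBS/LIF. Rhox13 had 93 counts in VitC/LIF and 2 in 2i/LIF, a ratio of 48.2 (95% counting interval 13.0 to 404), and Rhox10 had 35 and 1, a ratio of 36.3 (6.10 to 1474). VitC/LIF was the highest of the 3 media for both abundant members. Over the whole X chromosome, 142 of 590 tested genes (24.1%) were higher in VitC/LIF, against 11.2% to 20.6% on the autosomes.

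Genes of FGF ligands and receptors were split: 5 of 16 tested were higher and 3 lower, a share called of 50% against 24.5% of all genes tested. The receptor gene Fgfr2 had 32.8 and 29.4 CPM in VitC/LIF and 3.18 and 5.04 CPM in 2i/LIF (log2 fold change 2.92 ± 0.22), and the ligand gene Fgf17 had 17.7 and 15.0 CPM in VitC/LIF and 3.02 and 2.91 CPM in 2i/LIF. Fgf10 (-2.83 ± 0.43) and Fgf3 (-2.18 ± 0.34) were lower, as was Fgf4, the main FGF ligand of embryonic stem cells, by a small amount (-0.35 ± 0.10). The Fgf4 call was lost in every fit that left out 1 library.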
